A study of Strongylocentrotus purpuratus with 8 samples.

Results

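The signalling gene model panel is a set of 396 predicted genes on an array of the sea urchin Strongylocentrotus purpuratus. It is 6.17% of the 6414 targets of the array. Its members are the targets carrying 1 curator's prefix, less those whose symbols point to Wnt ligands and their main receptors and inhibitors, Axin, Akt, biomineralization proteins or the core of the apoptosis machinery. Much of what remains is a cross-section of embryonic signalling: ligands, receptors, antagonists, cytoplasmic transducers, kinases, phosphatases, small GTPases and a few transcription factors. By their symbols, 92 members fit none of the pathway groups used here, and 10 are names for cilia and motors, so the panel is not made of signalling genes alone. The rule used names alone and no measured value. The array shortens each symbol, so 69 members share a symbol with another member, and such members are told apart here by the number of their gene model.

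The study asked what happens to embryonic gene expression when the sea urchin Runx factor SpRunt-1 is knocked down. Embryos of 4 cultures, each from its own mating pair, received by microinjection a morpholino, an antisense oligonucleotide, that blocks the splicing of SpRunt-1, and grew at 15 °C to the hatched blastula at 18 h after fertilization. Morphant RNA of each culture came from 3600 embryos. The control was 1 RNA pool of about 14400 untreated embryos of the same 4 cultures. The control embryos were not injected, so the effects of the knockdown, of the injection and of the oligonucleotide itself cannot be told apart. Morphant and pool RNA were hybridised together on 2 arrays per culture, once in each dye orientation, and the 2 arrays were averaged to 1 value per culture (n = 4). Every value below is a log2 ratio of morphant over control pool, so that 1 is a doubling, unless a fold or another quantity is named. Under loess normalization a ratio states a change relative to other genes of like brightness. Because the control is a single pool, its own spread is not in any test, and a ratio of a culture also holds whatever set its parents apart from the other parents in the pool. The gene model for SpRunt-1 was not lower throughout: its log2 ratios were -0.21, -0.54, -0.04 and 0.09 in cultures 1 to 4, with a mean of -0.18 ± 0.27 (SD, n = 4; adjusted p = 0.345, limma). A splice block need not lower the total transcript, so the array does not measure the extent of the knockdown. Targets named SPAN or arylsulfatase, names that include markers of early ectoderm, were detected. Of 5 tested targets named SPAN 1 rose (2.01, adjusted p = 0.0416, limma), with a median of 1.27. Of 16 named arylsulfatase 1 fell (-1.51, adjusted p = 0.043, limma), with a median of -0.10. That target is named arylsulfatase B, and the name alone does not make it an ectoderm marker. The brightest arylsulfatase target had -0.30 and did not pass (adjusted p = 0.362, limma). The 5 targets for Endo16, FoxA, Blimp1, gcm and MSP130, markers of endoderm, pigment cells and skeletogenic cells, lay between -1.38 and 0.88 and none passed. Whether the morphants differed from the pool in stage or cell makeup, and its part in the results below, was not tested.

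A secreted ligand binds a receptor, adaptors and G proteins couple the receptor to kinases and small GTPases, and phosphatases and secreted antagonists limit the response. In the sea urchin blastula, Nodal with its antagonist Lefty sets up the oral side, BMP signalling the aboral side, Delta and Notch the non-skeletogenic mesoderm, and the Ras, Raf and MAP kinase cascade is needed by the skeletogenic mesenchyme. Runx proteins are transcription factors that bind DNA with CBF-beta and can activate or repress their targets.

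Of the 396 members, 338 (85.4%) were measured well enough to test, against 85.5% of all targets. Among them 6 were higher and 8 were lower in morphants at an adjusted p under 0.05. That is 14 of 338, or 4.14%, beside 5.00% of all 5481 genes tested. By direction, 1.78% of tested members rose beside 2.96% of all genes, and 2.37% fell beside 2.04%. The median member had a log2 ratio of -0.02, the same as the median of all genes, and the medians of the absolute log2 ratios were 0.22 and 0.23. The share of members called thus lay near that of the whole array. In whole-embryo RNA, fewer cells of a type and less RNA per cell cannot be told apart.

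The 6 members that rose were the kinases SpMOSa and Sp-Raf, the phosphatases SpMKP-5 and Sp-R-PT (GLEAN3_18228), the small GTPase Sp-Rac and the heat shock gene SP-HSP4. The 8 that fell were the ligand Sp-BMP (GLEAN3_07317), the adaptor Sp-GRB2, the kinase SpMEKK4, the small GTPases Sp-Rab5 and Sp-Rab1 (GLEAN3_10762), the GTP-binding protein Sp-MTG1, the phosphatase Sp-SSH (GLEAN3_02366) and Sp-MAP2 (GLEAN3_10248), whose shortened name does not settle its product. All 14 lay on 1 side of 0 in all 4 cultures, as did 44.4% of tested members and 44.3% of all genes. Their adjusted p-values ran from 0.0253 to 0.0492, so none lay far below the threshold. Without culture 2, 3 or 4 no member passed, although 61, 64 and 84 members still had an unadjusted p under 0.05, beside 22.1%, 22.2% and 24.6% of all genes. With all cultures these were 112 members, or 33.1%, beside 35.3%. None passed with variances fitted to a trend and made robust either, with 118 at an unadjusted p under 0.05, beside 37.3% of all genes. Without culture 1, 19 members were higher and 34 lower, beside 6.48% and 9.71% of all genes, and 12 of the 14 were among those past the threshold. With arrays centred on their median in place of loess, 2 were higher and 0 lower, beside 0.894% and 0.128% of all genes, and the median of all genes moved from -0.02 to 0.10.

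**Figure D1:**
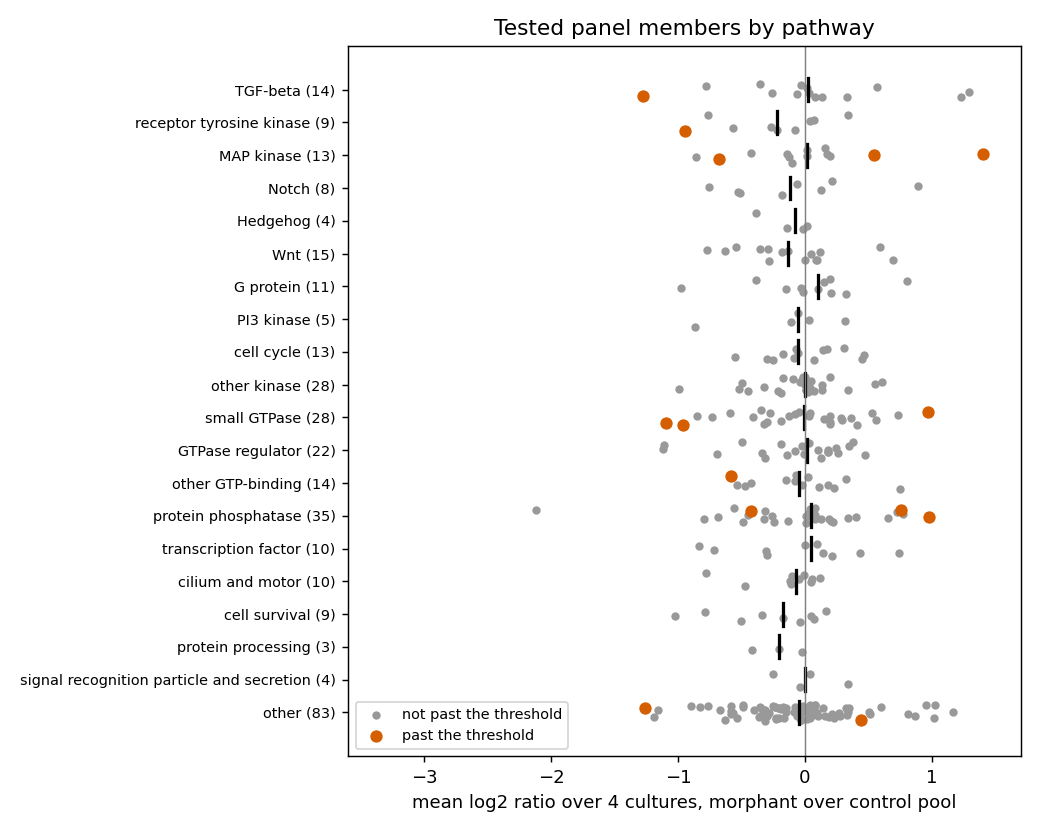
Mean log2 ratio over 4 cultures (x axis) of the 338 tested members, grouped by pathway (rows, number tested in brackets), with a black bar at the median of each group and points spread vertically for legibility. The 14 members past the threshold (orange) include 3 of the MAP kinase group, 3 of the small GTPases and 3 of the protein phosphatases.

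**Figure D2:**
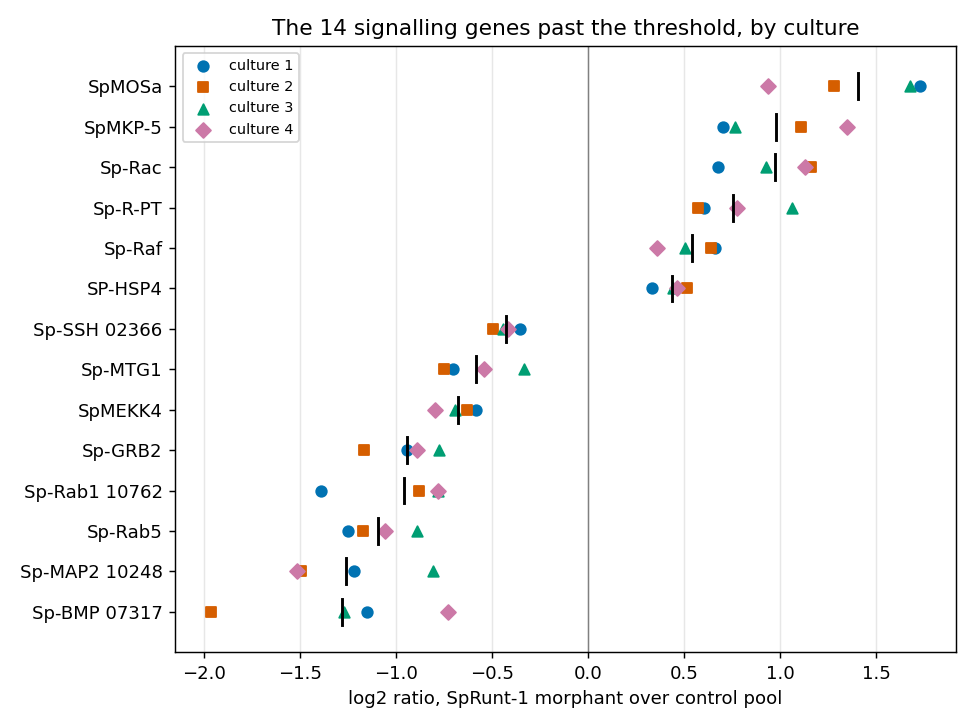
Log2 ratio of morphant over control pool (x axis) for the 14 members past the threshold (rows), with 1 symbol per culture and a black bar at the mean. No member has cultures on both sides of 0, and the largest spread is that of Sp-BMP (GLEAN3_07317), from -1.96 to -0.73.

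Among the ligands, 12 of 13 members were tested, 0 rose and 1 fell, with a median of -0.10. Sp-BMP (GLEAN3_07317), a bone morphogenetic protein model whose shortened name does not say which, had log2 ratios of -1.15, -1.96, -1.27 and -0.73 in cultures 1 to 4. It was lowest in culture 2 and below 0 in every culture. Its mean was -1.28 ± 0.51 (SD, n = 4), 0.412 times the control level, with an adjusted p of 0.0492 (limma). That call was lost in 9 of 17 alternative settings, among them that without the filter on dim probes (adjusted p = 0.0569). Its other probe did not pass the filter.

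The other tested Sp-BMP model (GLEAN3_12786) lay on the opposite side. Its log2 ratios were 0.08 in culture 1 and 1.78, 1.49 and 1.82 in cultures 2, 3 and 4. Culture 1 was near 0 while the others lay together well above it, and the mean of 1.30 ± 0.82 did not pass (adjusted p = 0.081). The second probe of this model gave a mean of 1.21. Sp-BMP2, another model of the family, was near 0 in all cultures, with a mean of 0.02.

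Nodal, the ligand that patterns the oral ectoderm, gave log2 ratios of -0.76, 0.95, 1.02 and 0.11 in cultures 1 to 4 (Sp-Noda). Lefty, the secreted Nodal antagonist that Nodal itself induces, gave -1.31, 0.66, 0.58 and -0.99 (Sp-Left). Univin, a TGF-beta ligand needed for Nodal expression in sea urchins, gave -1.05, 0.12, 0.60 and 0.09 (Sp-Univ). These 3 ligands were lowest in culture 1, and their means of 0.33, -0.26 and -0.06 did not pass the threshold. An F test between cultures gave adjusted p-values of 8.3e-06, 1.1e-06 and 6.3e-06 (limma). Each culture is 1 morphant RNA on 2 dye-swapped arrays, so this F test sets the spread between RNA samples against array noise alone. It says that the RNAs differed, with no replicate within a mating pair, and this holds for every F test below. The receptor through which Nodal and Univin signal, Sp-Alk4, had 0.06, 1.21, 0.93 and 0.07. It was raised in cultures 2 and 3, the cultures in which Nodal and Lefty were both above 0, and near 0 in cultures 1 and 4. This pattern was not particular to these genes. With the morphant in Cy5, the member PP1 had 0.11, 1.3, 1.8 and -0.003 in cultures 1 to 4, and Sp-PP4R 0.34, 1.12, 1.16 and -0.03. The second probes gave means of 0.34 for Nodal, -0.11 for Lefty, 0.52 for Sp-Alk4 and 0.14 for Univin, so that only Univin's probes differed in sign. These genes were singled out after their values were seen.

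The activin receptor model Sp-ACVR stood below 0 in 3 cultures, at -0.93, -1.39 and -1.07 in cultures 1, 2 and 4, and at 0.29 in culture 3. The BMP receptor model Sp-Bmpr was near 0 in culture 1 and between -0.56 and -0.39 in the others, with a mean of 0.17 on its other probe. Sp-Alk3, a type I BMP receptor, had a mean of -0.03. No TGF-beta receptor passed the threshold.

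The secreted antagonists of BMP and Nodal did not pass either. Sp-Cern, shortened from a Cerberus-like name, had log2 ratios of 2.36, 0.78, 2.18 and -0.42 in cultures 1 to 4, among the widest spreads of the panel. Cultures 1 and 3 were high and culture 4 lay below 0. Its second probe had a mean of -0.47 against 1.23 for the brighter one, so the probes point in opposite directions. Chordin (Sp-chor), the BMP antagonist expressed under Nodal in the oral ectoderm, had a mean of 0.04 ± 0.13, and twisted gastrulation (Sp-Tsg) of 0.13 ± 0.15. Over the whole TGF-beta group 14 of 15 members were tested, 0 rose, 1 fell and 9 had an F test adjusted p under 0.05.

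**Figure D3:**
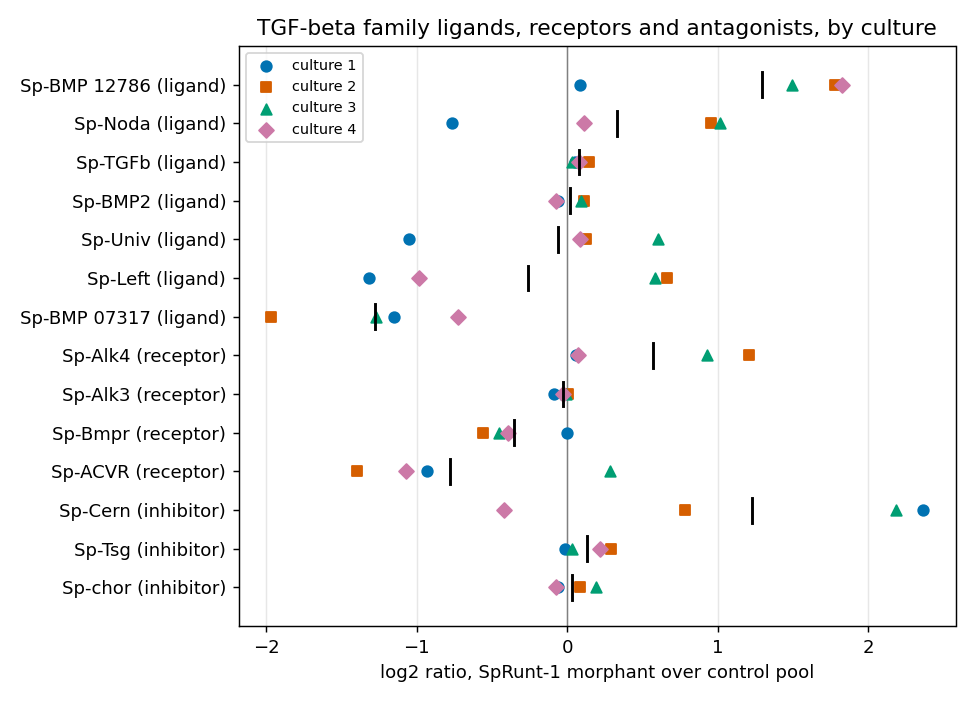
Log2 ratio of morphant over control pool (x axis) for the 14 tested TGF-beta ligands, receptors and antagonists (rows), with 1 symbol per culture and a black bar at the mean. Sp-Noda, Sp-Left and Sp-Univ are lowest in culture 1, and Sp-BMP (GLEAN3_07317) is the member with all cultures well below 0.

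Of the Notch members, 8 of 11 were tested and none passed, 4 of them with an unadjusted p under 0.05. Delta (Sp-Delt), the ligand that signals from the skeletogenic cells to their neighbours, had log2 ratios of -0.10, -0.97, -0.62 and -0.37 in cultures 1 to 4. Sp-Neur, a shortened name read here as Neuralized, the ubiquitin ligase that activates Delta by endocytosis, had -0.29, -1.35, -0.84 and -0.54. An ADAM protease model (GLEAN3_14521), of the family that cleaves Delta and Notch outside the cell, had -0.10, -1.09, -0.61 and -0.30. All 3 were below 0 in all 4 cultures, least in culture 1 and most in culture 2, with adjusted p-values of 0.108, 0.078 and 0.126. Nicastrin (Sp-Nica), a subunit of the gamma-secretase that cleaves Notch, lay on the other side at 0.36, 0.95, 1.19 and 1.06. Its mean was 0.89 ± 0.37, and its adjusted p of 0.0521 just missed the threshold. The tested Notch receptor model (GLEAN3_25985) had a mean of 0.13 and was well above background in the control channel on 2 of 8 arrays. The brighter and the second probe had opposite signs for the ADAM model, whose second probe had a mean of 0.21. Another tested ADAM model (GLEAN3_03170) had -0.37, -0.04, -0.71 and 0.41 in cultures 1 to 4 with the morphant in Cy5. Of the 8 tested members of the group, 3 lay below 0 in all 4 cultures and 2 above 0. Sp-Neur and the first ADAM model were singled out after their values were seen. A second Notch model and presenilin were among the members not tested. Over the alternative settings the mean of Sp-Delt ran from -0.79 to -0.06. Outside the panel, 2 targets with Delta-like names had means of 0.43 and 0.38, with 0.37 and -0.05 on their second probes. Neither passed (adjusted p = 0.0694 and 0.213, limma).

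Hedgehog signalling gave no call among 4 tested members, and none had an unadjusted p under 0.05. The ligand itself was dim, well above background on 2 of 8 arrays in morphant RNA. The patterning role of this pathway comes later in development, in mesoderm. Dispatched, the membrane protein that releases the ligand, had log2 ratios of 0.19 in culture 1 and between -0.81 and -0.35 in the others. Its other probe had a mean of -0.03. A target outside the panel, named as similar to dispatched A, lay between 0.26 and 0.34 in all cultures and did not pass (adjusted p = 0.0548, limma).

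The tyrosine kinase receptors lead into the Ras, Raf and MAP kinase cascade, and both groups held called members. GRB2, the adaptor that brings the Ras activator SOS to active receptors, had log2 ratios of -0.94, -1.17, -0.77 and -0.89 in cultures 1 to 4. The cultures lay close together and all below 0. Its mean was -0.94 ± 0.17, 0.520 times the control level, with an adjusted p of 0.0253 (limma), and its second probe had a mean of -0.95. An ephrin model (Sp-ephr), a membrane-bound ligand of Eph receptors, lay below 0 in every culture, between -1.06 and -0.34. Its adjusted p of 0.0521 just missed the threshold. The discoidin domain receptor model Sp-DDR1 was between -0.99 and -0.15, and SpALK_c, a receptor tyrosine kinase model, between 0.10 and 0.51, and neither passed. Sprouty (Sp-Spry) and the Spred model Sp-Spre, inhibitors of the Ras pathway, had means of 0.04 and -0.26. VEGF was not well above background in the control on any of the 8 arrays, so no ratio is given for it.

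In the MAP kinase group 13 of 15 members were tested, 2 rose and 1 fell. SpMOSa, a Mos kinase model, had the highest mean of the panel. Mos is a MAP kinase kinase kinase known from oocyte maturation, where it keeps the MAP kinase pathway active. Its log2 ratios were 1.73, 1.28, 1.68 and 0.94 in cultures 1 to 4. All cultures were raised, culture 4 the least. The mean was 1.41 ± 0.37, a 2.65-fold rise with an adjusted p of 0.0283 (limma), and the second probe had a mean of 1.15. It was the sole member among the 14 still past the threshold with median centring (1.91, adjusted p = 0.0454).

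Raf, the kinase that Ras recruits to start the ERK cascade, had log2 ratios of 0.66, 0.64, 0.51 and 0.36 in cultures 1 to 4 (Sp-Raf). Its rise was modest and similar in all cultures, 1.46-fold on average (SD 0.14, adjusted p = 0.0452). The control channel was well above background on 5 of 8 arrays for Sp-Raf. With the arrays that carry the morphant in Cy5 alone the adjusted p was 0.0504. SpMEKK4, in mammals a kinase upstream of JNK and p38, had -0.59, -0.63, -0.69 and -0.80 in cultures 1 to 4. Averaged over both dyes, the cultures lay close together (SD 0.09), and the mean of -0.68 corresponds to 0.626 times the control level (adjusted p = 0.0255). The dye orientations differed more, with means of -0.87 with the morphant in Cy5 alone and -0.48 in Cy3 alone. The call was lost in Cy3 alone (adjusted p = 0.0696, limma) and with culture as a random block (adjusted p = 0.0586, limma). SpMEKK4 was not tested under the strict filter. Its second probe had a mean of -0.64.

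The MAP kinases that these enzymes feed were not called. The p38 model (Sp_p38) had a mean of 0.20 ± 0.22, and the model SpMAPK8, a name used for JNK, was dim with a mean of 0.01. SpMAPK1, an ERK-type name if it is not shortened, had -0.16, -0.69, -0.51 and -0.33, below 0 throughout, with an adjusted p of 0.0772. SpMnk2, a kinase that MAP kinases activate and that phosphorylates the translation factor eIF4E, was between -1.41 and -0.43 (adjusted p = 0.0627). The p21-activated kinase SpPAK1 was 0.68 in culture 1 and between -0.49 and -0.26 in the others, with a mean of 0.19 on its other probe.

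Protein phosphatases remove the phosphate that kinases add. Of 43 members 35 were tested, 2 rose and 1 fell. SpMKP-5, a dual-specificity phosphatase that in mammals inactivates JNK and p38, had log2 ratios of 0.70, 1.11, 0.76 and 1.35 in cultures 1 to 4. All cultures were raised, cultures 2 and 4 the most. Its mean was 0.98 ± 0.30, a 1.97-fold rise (adjusted p = 0.0391), and its second probe had a mean of 1.13. A receptor-type tyrosine phosphatase model, Sp-R-PT (GLEAN3_18228), had 0.61, 0.58, 1.06 and 0.78, highest in culture 3. Its mean of 0.76 ± 0.22 was a 1.69-fold rise (adjusted p = 0.042), but its second probe had a mean of 0.36 and in its place did not pass (adjusted p = 0.171).

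Slingshot, the phosphatase that activates the actin-severing protein cofilin, fell slightly and evenly (Sp-SSH, GLEAN3_02366). Its log2 ratios were -0.35, -0.49, -0.44 and -0.42, with a mean of -0.43 ± 0.06 (adjusted p = 0.0429). SpPTPN1, a non-receptor tyrosine phosphatase name, had the lowest mean of the panel and the widest spread of all. It was -3.39, -2.61 and -3.87 in cultures 1, 3 and 4 and 1.40 in culture 2. The mean of -2.12 ± 2.40 did not pass (adjusted p = 0.188), while the 4 RNAs differed beyond array noise, with an adjusted p of 1.1e-09 by the F test. Both dye orientations gave means of -2.11 and -2.12, and the second probe gave -1.53. Sp-TPTE, a phosphatase with a voltage sensor, had a mean of -0.49 on its brighter and 1.19 on its second probe.

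Small GTPases are molecular switches: Rac acts on the actin cytoskeleton, Rab and Arf on vesicle traffic. Among 28 tested of 37 members, 1 rose and 2 fell. Sp-Rac had log2 ratios of 0.68, 1.16, 0.92 and 1.13 in cultures 1 to 4. All cultures were raised, culture 1 the least, with a mean of 0.97 ± 0.22, a 1.96-fold rise (adjusted p = 0.0276). Its second probe had a mean of 1.03.

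Sp-Rab5, the GTPase of early endosomes, had -1.25, -1.17, -0.89 and -1.06, and Sp-Rab1 (GLEAN3_10762) had -1.39 in culture 1 and -0.88, -0.78 and -0.78 in the others. Their means were -1.09 ± 0.16 and -0.96 ± 0.29, with adjusted p-values of 0.0253 and 0.0391. Neither fall was seen on the second probe that passed the filter. That probe had a mean of 0.11 for Sp-Rab5 and of -0.01 for Sp-Rab1, so these calls each rest on 1 of 2 probes. Another Sp-Rab1 model (GLEAN3_13929) had a mean of 0.36, above 0 in all cultures, and Sp-Arf1 (GLEAN3_26944) one of 0.56 ± 0.20. Both just missed the threshold.

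Of the regulators that switch GTPases on and off, 22 of 25 were tested and none passed, with 8 at an unadjusted p under 0.05. Sp-SYDE, a GTPase-activating protein name, had -0.38, -1.19, -1.48 and -1.40 in cultures 1 to 4, below 0 in all and least so in culture 1. Sp-BCR, whose mammalian namesake acts on Rac, had 0.39 in culture 1 and -2.24, -1.24 and -1.39 in the others. Their means, -1.11 and -1.12, were nearly equal. The adjusted p-values were 0.0544 and 0.152. Sp-MTG1, a name used for a GTP-binding protein that helps assemble the mitochondrial ribosome, was the 1 faller among 14 other GTP-binding members. It had -0.71, -0.75, -0.33 and -0.54 in cultures 1 to 4, with a mean of -0.58 ± 0.19 (adjusted p = 0.0466), and its second probe did not pass the filter. With the arrays carrying the morphant in Cy3 alone its adjusted p was 0.0556.

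Of the G protein and calcium group 11 of 15 were tested and none passed, 3 with an unadjusted p under 0.05. The alpha subunit model Sp-Gi_k, of the class that inhibits adenylate cyclase, had log2 ratios of -2.28, -1.98 and -1.93 in cultures 1, 3 and 4 and 2.29 in culture 2. The gamma subunit model Sp-Gg1 had 2.04 in culture 2 and 0.23, 0.24 and 0.71 in cultures 1, 3 and 4. Culture 2 was thus the highest for both subunits. The second probe of Sp-Gi_k had a mean of -0.02 and that of Sp-Gg1 of 0.70. The stimulatory subunit Sp-Gs_k had a mean of 0.20 ± 0.14.

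The phosphoinositide 3-kinase group held SpPI3K (GLEAN3_10910) at -0.60, -1.39, -0.73 and -0.75 in cultures 1 to 4. All cultures were below 0, the mean was -0.87 ± 0.35 and the adjusted p of 0.0521 just missed the threshold, while its second probe had a mean of -0.10. A second model of the name (GLEAN3_05073) had a mean of 0.32.

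The members that touch Wnt signalling without being its ligands or main receptors numbered 17, of which 15 were tested and none passed. Of these, 8 had an unadjusted p under 0.05. Pygopus (SP-Pygo), a nuclear cofactor of beta-catenin, had log2 ratios of 0.40, 1.08, 0.61 and 0.68. Flamingo (Sp-Fmi2), a membrane protein of planar cell polarity, had -0.05, -1.29, -0.77 and -0.98. Sp-Stra, a shortened name read here as Strabismus, another such protein, had -0.08, -1.29, -0.52 and -0.63. Pygopus lay above 0 in all 4 cultures, and the polarity genes were near 0 in culture 1 and below it in the others. The second probes of Flamingo and Strabismus gave means of -0.05 and -0.01, so the lower values were seen on 1 probe of each. Daam (Sp-Daam), a formin, was between -1.03 and -0.08 with its lowest value in culture 1.

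No transcription factor passed among 10 tested of 12, although 5 had an unadjusted p under 0.05. The Myc model Sp-c-my had log2 ratios of 0.15 in culture 1 and 1.01, 0.88 and 0.94 in the others (mean 0.74 ± 0.40, adjusted p = 0.0665). The STAT model STAT_rt was 0.01 in culture 1 and -1.26, -0.74 and -0.90 in the others. In both, culture 1 stood near 0 while the other cultures lay together. The coactivator CBP (Sp-CBP) was close to evenly lower, with values from -0.43 to -0.25. It was one of 6 named members whose sign turned with median centring, where it had 0.19.

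Among the remaining members, Sp-MAP2 (GLEAN3_10248) fell to 0.418 times the control level. Its log2 ratios were -1.22, -1.49, -0.81 and -1.51 in cultures 1 to 4 (mean -1.26 ± 0.33, adjusted p = 0.0283), and its second probe had a mean of -0.82. SP-HSP4 rose 1.36-fold, with 0.33, 0.52, 0.44 and 0.47 (adjusted p = 0.0441), and 0.18 on the second probe. Of 9 tested cell survival members none passed. Sp-BIRC, a name used for inhibitor of apoptosis proteins, had -1.76, -1.62 and -1.58 in cultures 1 to 3 and 0.86 in culture 4, with a mean of -1.02 that did not pass. The intraflagellar transport model Sp-IFT5 (GLEAN3_06278) had -1.98 and -2.84 in cultures 1 and 3 and 0.82 and 0.88 in cultures 2 and 4.

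Such differences between cultures were common. By the F test, whose error is that of the dye-swapped arrays alone, 199 of 338 tested members differed between the 4 RNAs at an adjusted p under 0.05. That is 58.9%, beside 61.4% of all genes. Of the 14 members past the threshold against the control pool, 8 also passed the F test. Culture 1 alone lay on its side of 0 for 50 members, beside 19.4% of all genes. The counts for cultures 2, 3 and 4 were 12, 36 and 28 members, beside 5.29%, 6.60% and 8.92% of all genes. A wider gap, with 1 culture at least 1 log2 unit from each of the others, occurred in 14, 8, 6 and 5 members for cultures 1 to 4. These are 4.14%, 2.37%, 1.78% and 1.48% of tested members, beside 4.60%, 1.28%, 1.50% and 1.00% of all genes.

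The 14 members in which culture 1 stood apart fell into sets by sign. In 8 of them culture 1 lay between 0.22 and 0.70 while culture 2 lay between -2.24 and -1.62, culture 3 between -1.30 and -0.78 and culture 4 between -1.45 and -0.78. These were Sp-BCR, Sp-eIF2, Sp-Chur, Sp-PTPR (GLEAN3_23115), Sp-FLJ4, Sp-Atax, Sp-Rkhd and Sp-Rheb. Culture 2 was the lowest in each. They include Rheb, the GTPase that activates TOR, and a model named for the translation initiation factor eIF2. In the other 6, which include Univin and Sp-BMP (GLEAN3_12786), culture 1 was the lowest. On the second probe the means were between -1.06 and -0.82 for Sp-BCR, Sp-eIF2, Sp-Atax and Sp-Rheb. They were between -0.16 and 0.02 for Sp-Chur, Sp-PTPR (GLEAN3_23115) and Sp-FLJ4, and 0.70 for Sp-Rkhd.

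**Figure D4:**
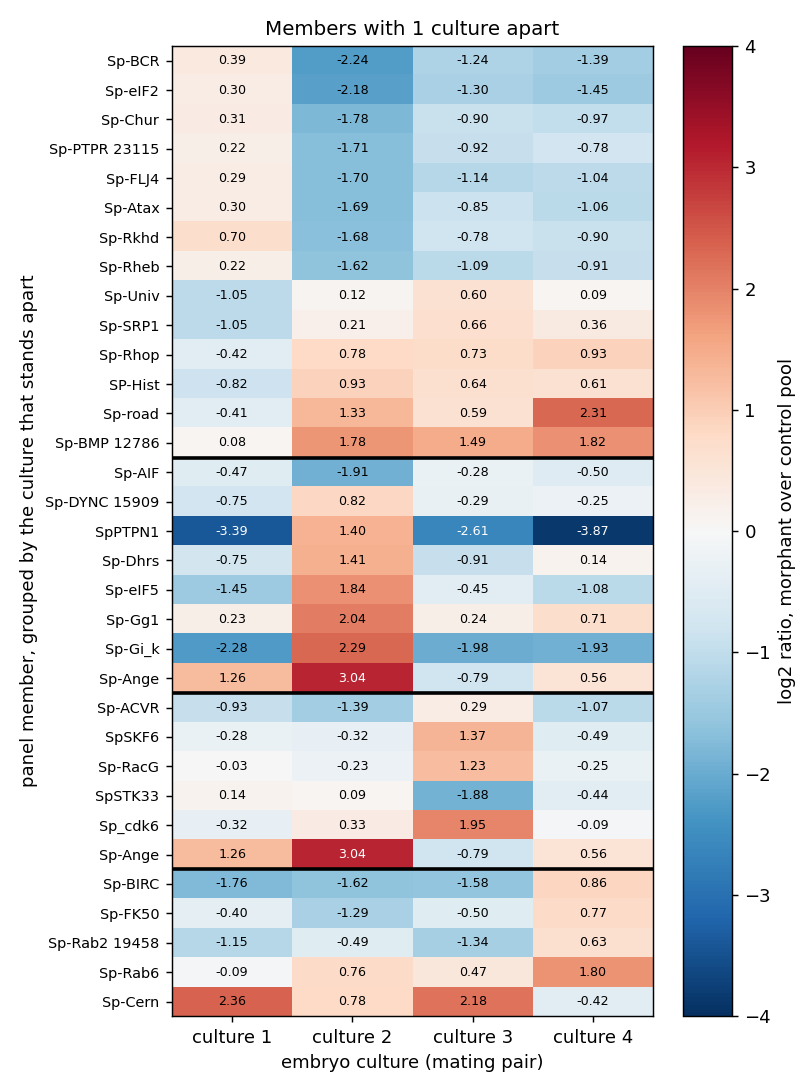
Log2 ratio of morphant over control pool (colour and printed value) in each culture (columns) for the members in which 1 culture lies at least 1 log2 unit from each other culture (rows), with black lines between the sets for cultures 1 to 4. Sp-Ange appears under cultures 2 and 3, and SpPTPN1 and Sp-Gi_k are at -1.93 or below in every culture but culture 2.

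The array carries a second probe for most members, which gives a separate reading of the same RNA. For 254 members both probes passed the filter, and for 55 of these (21.7%) their means had opposite signs, beside 21.3% of genes with a pair of kept probes on the whole array. The correlation between the probes was 0.66 across these members and 0.753 across all such genes, where both probes share each library. Of the 14 members past the threshold, 12 had such a pair, 11 with the same sign, and for 6 the second probe passed too. Sp-PCSK, a proprotein convertase of the kind that matures TGF-beta ligands, had -0.20 on its brighter and 1.21 on its second probe.

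**Figure D5:**
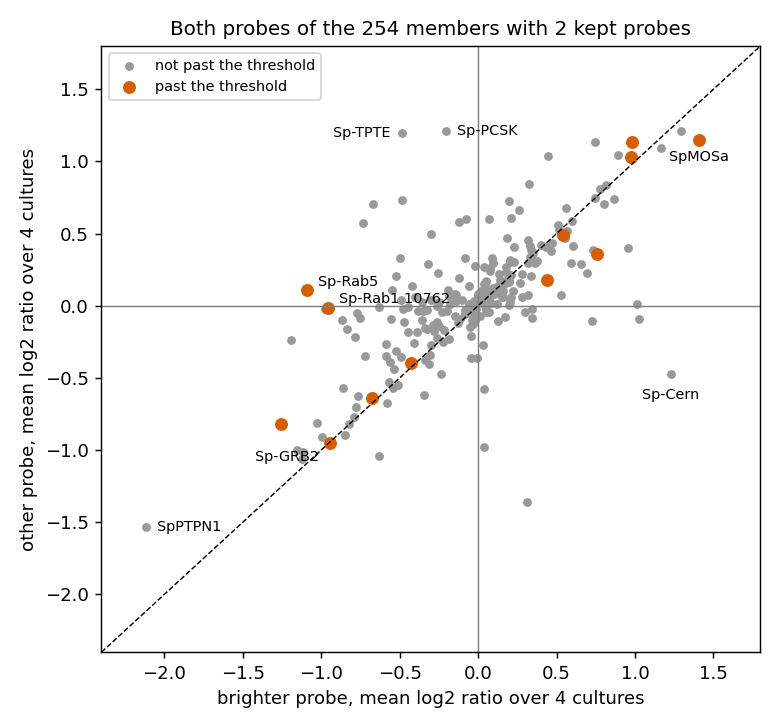
Mean log2 ratio over 4 cultures on the brighter probe (x axis) and on the other probe (y axis) for the 254 members with 2 kept probes, with the line of equality dashed. The 12 members past the threshold that have such a pair (orange) share a sign on both probes except Sp-Rab5, and Sp-Rab5 and Sp-Rab1 (GLEAN3_10762) are near 0 on the other probe.

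Signalling genes elsewhere on the array were found by name. Of 11 tested Notch names, 1 Hedgehog name, 9 TGF-beta names, 6 receptor tyrosine kinase names and 4 MAP kinase names, none passed the threshold. Their medians were -0.09, 0.30, -0.03, -0.0037 and -0.08. A further match to the MAP kinase search, an unrelated word, was left out after it was seen. The searches for small GTPase, G protein and immune names also matched unrelated words such as uncharacterized and intraflagellar. They returned 10, 3 and 0 called genes among 103, 30 and 14 tested, beside 5.00% of all genes. The shares for the small GTPase and G protein searches lay above that. In the small GTPase search 5 rose and 5 fell, and in the G protein search 2 rose and 1 fell. Because of the unrelated matches these lists are not read further.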

How the data were processed

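RNA of SpRunt-1 morphants from 4 cultures was set against 1 pool of control RNA on 8 two-colour arrays, 2 per culture with the dyes swapped. The submitters' processing notes name Agilent Feature Extraction, version 10.7.1.1. The authors' scanner files give mean signal and background intensities per spot, per the file headers. Processed intensities and a log10 ratio (red channel over green) stand beside them, per the file headers. A further table that the authors deposited holds log2 ratios, whose making the sources used here do not describe.

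Intensities were background-corrected (normexp, offset 50) and loess-normalized in R 4.3.3 with limma 3.58.1 (files read with version 1.17.8 of data.table), with control spots at weight 0. Spots marked as outliers were dropped, which touched 4 spots of the panel. Probes stayed in where 4 or more of the 8 arrays had them well above background in either channel, and the brightest such probe stood for its gene. Each gene's mean over cultures was compared with 0 (lmFit, eBayes), with Benjamini-Hochberg adjustment over all 5481 genes. Differences between cultures were tested with limma's F test over the 8 arrays with a term for dye, whose error is technical, since a culture's arrays share 1 RNA. The fit was tested on simulated data. The number of arrays limits the precision.

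The members and lists were chosen with earlier results of these data known. Named are the members past the threshold, the 10 highest and 10 lowest means, up to 4 members per role with the smallest p, and members whose probes disagree where 1 passes. Other names were chosen after their values were seen. Roles were set by hand from the symbols, and no member was matched to RefSeq genes (Spur_5.0), so no sequence is shown. Alternatives were another background correction, scaling, filter, probe choice, dye, variance model and threshold, the authors' table, and each culture left out.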

Additional observations from a re-analysis of the deposited data

Results flagged for a closer look

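In 5 of the 47 named members 1 of the 4 cultures lay apart from the other three by Dixon's criterion, which chance meets in about 5% of groups. Sp-c-my had 0.15 in culture 1 and 0.88 to 1.01 in the others. TATA-Bi, a TATA-binding protein model, had 0.14 in culture 4 and 0.52 to 0.54 in the others. Sp-CBP had -0.43 in culture 1 and -0.28 to -0.25 in the others. Sp-Rab1 (GLEAN3_10762) had -1.39 in culture 1 and -0.88 to -0.78 in the others. Sp-BIRC had 0.86 in culture 4 and -1.76 to -1.58 in the others. Sp-Rab1 passed the threshold with all cultures, and the other 4 did not.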

How the results depend on the processing

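Of the 14 members past the threshold, 14 kept their call without background subtraction, with the scanner's log ratio and with the authors' table, and 13 of 13 tested kept it under the strict filter. With the random block 13 kept it, with the mean of both probes 13, without culture 1 12, with no filter 12, with the morphant in Cy5 alone 12 and in Cy3 alone 9, with the dimmer probe 7, with median centring 1, and with trended robust variances or without culture 2, 3 or 4 0. In each setting but the dimmer probe all kept their direction. The counts of members higher and lower were 31 and 14 with the scanner's log ratio (9.76% and 5.55% of all genes), 2 and 0 with median centring (0.894% and 0.128%), 16 and 15 in the authors' table (6% and 4.60%), and 37 and 44 with culture as a random block (12.3% and 14%). They were 12 and 10 under the strict filter (5.26% and 3.95%) and 10 and 6 on the dimmer probe (2.88% and 1.61%). With trended robust variances (limma) both were 0, with 118 members at an unadjusted p under 0.05, beside 37.3% of all genes. At an adjusted p under 0.1 they were 33 and 32. The share of all genes at that threshold was not counted, so these 2 counts are not read further. Leaving out 1 culture gave 0 to 19 higher and 0 to 34 lower. The panel median moved to -0.13, 0.10, -0.048, 0.015 and -0.0024 with the scanner's log ratio, median centring, the strict filter, the dimmer probe and the mean of probes, and lay between -0.041 and 0.014 without 1 culture. The causes were not tested.

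Of the 47 named members, the sign turned in 6 with median centring, 4 with the mean of probes and 7 on the dimmer probe. With median centring Sp-PCSK had 0.31, Sp-Spre 0.25, Sp-CBP 0.19, Sp-GbA2 0.051, Sp-B-IN 0.10 and Sp-TPTE 0.060. With the mean of probes Sp-PCSK had 0.51, Sp-B-IN 0.12, Sp-TPTE 0.35 and Sp-Rkhd 0.018. On the dimmer probe Sp-Cern had -0.47, SP-beta -0.089, Sp-PCSK 1.21, Sp-B-IN 0.73, Sp-TPTE 1.19, Sp-Rkhd 0.70 and Sp-Rab5 0.11. Without 1 culture Sp-PCSK lay between -0.32 and 0.0038, the highest without culture 1. No paired analysis was possible because the morphants of all cultures were set against 1 control pool.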

Other observations

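The kinases of the cell cycle gave no call among 13 tested of 14, with 2 at an unadjusted p under 0.05, and their median log2 ratio was -0.06. Sp_cdc2, the name of the kinase that drives entry into mitosis, was -0.17 in culture 1 and 0.51, 0.88 and 0.57 in cultures 2 to 4, with a mean of 1.04 on its second probe. Sp_cdk6, a G1 kinase name, was 1.95 in culture 3 and between -0.32 and 0.33 in the others. The Polo-like kinase SpPLK1 lay between -0.12 and -0.06 in all cultures. Among 10 tested members for cilia and motors none passed, with 1 at an unadjusted p under 0.05, and the median was -0.07.

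Several members with wide mean ratios lie outside the classical pathways. Sp-AJPX was above 0 in all cultures, from 0.61 to 1.73, with a mean of 1.09 on its second probe and an adjusted p of 0.0521. A septin model (Sp-Sept), of the filament-forming GTPases used in cell division, lay between 0.36 and 1.05, and both of its probes had means of 0.75. Sp-Ange had 3.04 in culture 2 and -0.79 in culture 3, with 0.0095 on its second probe. A laminin-like name (Sp-lami) was -0.01 in culture 1 and -2.23, -1.01 and -1.52 in the others. SpUPK was between -1.53 and -0.23, and its means differed with the dye, -0.50 with the morphant in Cy5 and -1.48 in Cy3. Of these members none passed the threshold.

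The 58 members not tested, dim on more than 4 of the 8 arrays in both channels, include Snail, the Wnt inhibitory factor WIF, presenilin, the adaptor SHC1, a focal adhesion kinase model and 1 TGF-beta ligand model.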
